A study of Caenorhabditis elegans with 4 samples.

Results

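In C. elegans L3 larvae, 579 of the 14199 HDA-1 peaks in the whole-series list were 800 bp or wider. They are called broad domains here. They made up 4.08% of the peaks (exact 95% interval 3.76 to 4.42%) and held 649 kb, or 13.9%, of the 4.66 Mb under peaks. The domains were chosen by width alone, as the end minus the start plus 1 of each peak, on all chromosomes. Width, score, overlap with the replicates and closeness to other peaks all come from the same peak calls, so they are given as descriptions with no test. The other 13620 peaks, under 800 bp, are the comparison, and the 812 peaks of 600 to 799 bp are shown beside them as the class most like the domains.

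HDA-1 was mapped by chromatin immunoprecipitation and sequencing (ChIP-seq), which recovers and sequences the DNA bound by a protein. The worms were N2, the standard wild-type strain, in a mixed culture of males and hermaphrodites kept at 20 °C. There were 2 ChIP libraries (replicates 1 and 2), made with a purified polyclonal rabbit antibody against HDA-1, and 2 input DNA libraries from the same stage and strain, which were not analysed here. Frozen, ground worms were crosslinked for 20 minutes with EGS, which links proteins to each other over a longer reach than formaldehyde, and for 10 more minutes with formaldehyde added, so DNA that HDA-1 reaches through other proteins can be recovered too. Whole worms were used, so a domain can come from any tissue or from several. The labels do not state if the replicates are separate cultures.

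HDA-1 is the worm's counterpart of mammalian HDAC1 and HDAC2, class I histone deacetylases. These enzymes take acetyl groups off histone tails and work inside corepressor complexes such as NuRD and SIN3. In C. elegans, HDA-1 is needed for embryonic development and for formation of the gonad and vulva. A peak caller such as MACS reports an interval of enriched reads, and the width of that interval depends on how far enrichment spreads, on how much signal the library holds and on whether neighbouring stretches are joined. Broad intervals are often seen where a chromatin factor spreads along a locus or binds several adjoining sites. A list of intervals cannot tell these apart.

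The replicate lists held fewer broad peaks than the whole-series list, and replicate 2 held the fewest. Replicate 1 had 445 peaks of 800 bp or more among 11762 (3.78%), and replicate 2 had 157 among 9901 (1.59%). Over all peaks, the median width was 258 bp for replicate 1 and 218 bp for replicate 2, and the whole-series list had a median of 249 bp. Sequencing depth is unknown, since the lists carry no read counts, and its part in these numbers was not tested.

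Most domains were only modestly wider than the threshold. Their median width was 971 bp, with the middle 50% between 870 and 1184 bp and the widest at 4013 bp. Of the 579 domains, 321 (55.4%) were 800 to 999 bp wide, 185 (32%) were 1000 to 1499 bp and 73 (12.6%) were 1500 bp or more, among which 28 reached 2000 bp. Nothing in the widths marked 800 bp as a natural border. There were 16 domains of 800 to 809 bp and 30 peaks of 790 to 799 bp. The narrowest domain, on IV from 8234039 to 8234838, was 800 bp wide with a score of 9.54, and the next lay on III from 8356299 to 8357099 (801 bp, score 23.1) and on II from 6347389 to 6348190 (802 bp, score 33.6). Just outside were 3 peaks of 799 bp, on IV from 2895753 to 2896551 (score 82.7), on IV from 6887425 to 6888223 (score 44.6) and on X from 6092503 to 6093301 (score 17.1). Thus 2 of the 3 peaks that just missed the threshold scored above all 3 that just met it.

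**Figure D1:**
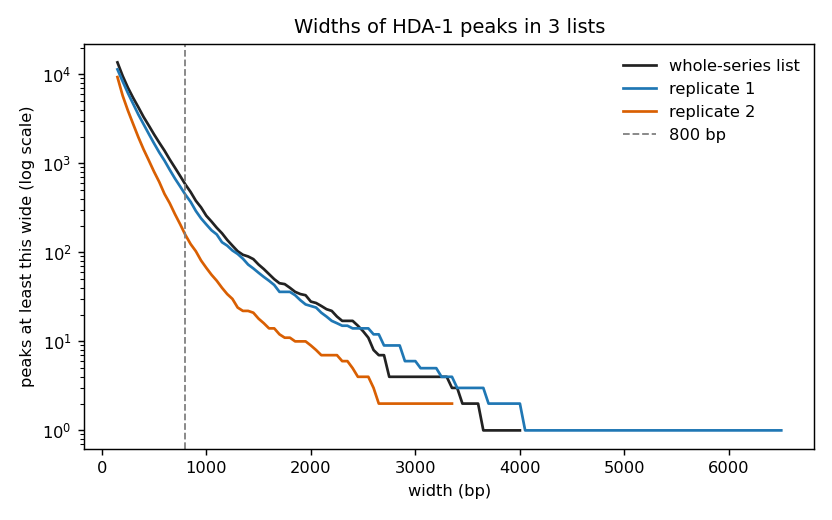
Number of HDA-1 peaks (vertical axis, log scale) at least as wide as the width on the horizontal axis (bp), for the whole-series list (black), replicate 1 (blue) and replicate 2 (orange). The curves fall smoothly through the dashed line at 800 bp, where 579, 445 and 157 peaks remain.

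Broad domains scored higher than narrower peaks. The score is the authors' own for each peak, and what it measures is not stated. The median was 31.6 in domains, 25.7 in peaks of 600 to 799 bp and 8.86 in all peaks under 800 bp. Of the domains, 276 (47.7%, interval 43.5 to 51.8%) were among the best-scoring 10% of the list. The share was 36.5% in peaks of 600 to 799 bp and 8.49% in all peaks under 800 bp. Within the domains, the median score was 29.8 at 800 to 999 bp, 32.9 at 1000 to 1499 bp and 41.0 at 1500 bp or more. Domain by domain the relation of width to score was loose, with a Spearman's rho of 0.15 over 579 domains. It was 0.59 over all 14199 peaks, whose widths span a fuller range, so the 2 values are not comparable in size. In both, the points share the same libraries and the same peak calls. Of the 28 domains of 2000 bp or more, 4 scored below 9.25, the median of the whole list, as did 29 of all 579.

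The scores of the 10 widest domains lay in 2 groups, although slightly narrower domains filled the gap between them. In 6 of the 10 the score was 28.6 to 46.7. The widest of all lay on the left arm of V from 723826 to 727838 (4013 bp, score 43). Replicate 1 called it as 1 peak that covered every base, and replicate 2 as 4 peaks that covered 74.5% of it. On V from 9342067 to 9344804 (2738 bp, score 41.5), replicate 1 again gave 1 peak covering 97%, while replicate 2 gave 4 peaks covering 43.2%. The domain on I from 7656932 to 7659656 (2725 bp, score 28.6) was 98.2% covered by 1 peak of replicate 1. In replicate 2 it was broken into 5 peaks, the widest only 275 bp, that covered 37.3%. The same arrangement was seen on X from 6739975 to 6742619 (2645 bp, score 46.7), with 1 peak and 3 peaks, and on V from 6227053 to 6229616 (2564 bp, score 35.9), with 1 peak and 4 peaks. On I from 1067767 to 1070471 (2705 bp, score 41.7), replicate 1 gave 1 peak and replicate 2 gave 2, and both covered most of the domain (99.3% and 89.9%). In these 6, replicate 1 was continuous and replicate 2 was broken up.

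In the other 4 of the 10 widest the score was 2.56 to 7.72, below the list's median, and replicate 2 covered more of the domain than replicate 1 did. On V from 14741555 to 14745192 (3638 bp, score 3.30), replicate 1 gave 2 peaks that covered 20.1%, and replicate 2 gave 3 peaks that covered 91%, the widest 2633 bp. On II from 3466218 to 3469552 (3335 bp, score 2.56), replicate 1 gave 3 peaks covering 89.7%, and replicate 2 covered all of it with 1. On II from 11214033 to 11216613 (2581 bp, score 7.72), replicate 1 had a single peak of 146 bp, the least width in its list, and replicate 2 had 1 peak covering 99.1%. On I from 3389952 to 3393353 (3402 bp, score 6.86), both replicates gave 1 peak, which covered 99.6% and 99.8%. That domain holds the widest peak of replicate 2, of 3396 bp. The 2 groups were seen after the values were known, and they do not hold beyond these 10. Slightly narrower domains scored in between, on IV from 11592506 to 11595006 (2501 bp, score 18.4), II from 3966773 to 3969221 (2449 bp, score 17.4) and V from 10721720 to 10723996 (2277 bp, score 24.5). Over all 29 domains that scored below the list's median, replicate 1 peaks covered 62.4% of the bases and replicate 2 peaks 71.1%. The pooled share weighs wide domains more. Domain by domain, 13 of the 29 were covered more by replicate 2, and the median covered share was 81.6% in replicate 1 and 71.2% in replicate 2, so the pattern of the 4 did not extend to most low-scoring domains. Over the 550 others, replicate 1 covered 86.9% of the bases and replicate 2 covered 68.3%.

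**Figure D2:**
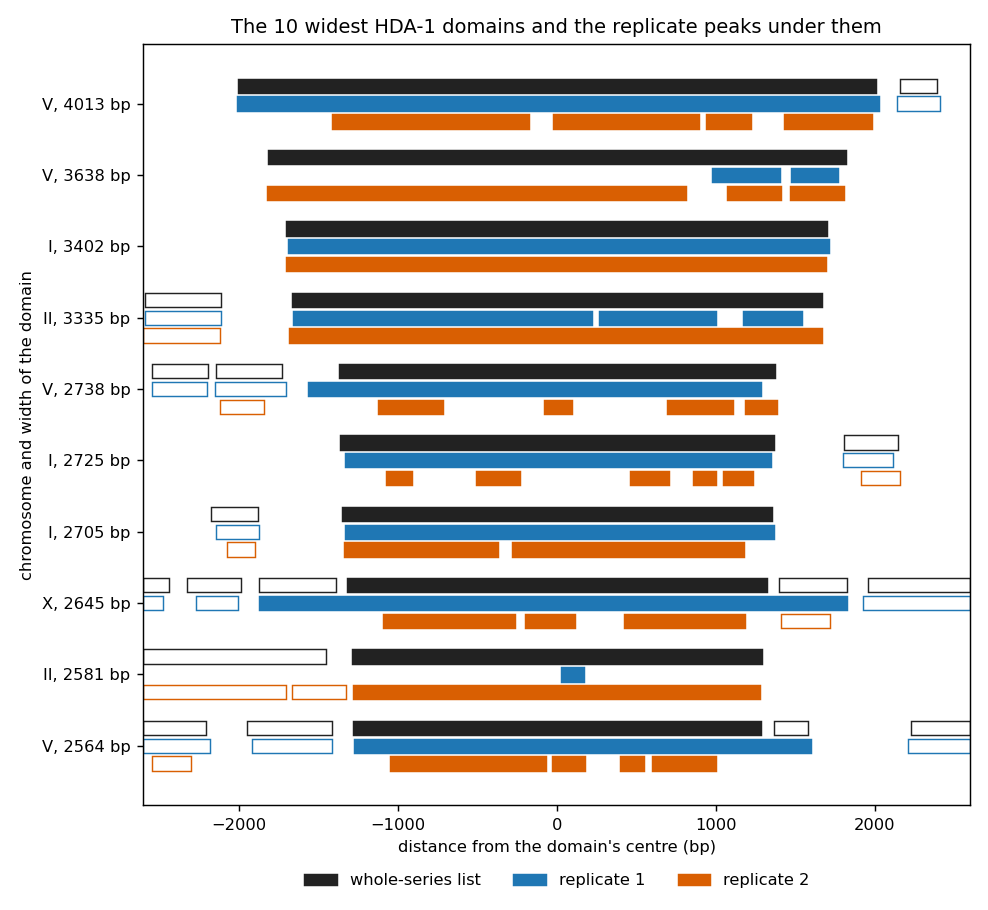
The 10 widest domains, one per band, ordered by width, with the distance from the domain's centre on the horizontal axis (bp). In each band the top row shows the whole-series list, the middle row replicate 1 and the bottom row replicate 2; filled bars are the domain and the replicate peaks that overlap it, open bars are other peaks nearby. The widest, of 4013 bp on V, is 1 bar in replicate 1 and 4 in replicate 2.

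Nearly every domain was called in both replicates. Of the 579 domains, 559 (96.5%, interval 94.7 to 97.9%) overlapped a peak of each replicate by at least 1 bp. The share was 91.3% in peaks of 600 to 799 bp and 39.6% in all peaks under 800 bp. A further 10 domains (1.73%) overlapped replicate 1 only and 10 (1.73%) overlapped replicate 2 only. These shares were 4.56% and 4.19% in peaks of 600 to 799 bp and 30.1% and 18.6% in all peaks under 800 bp. No domain lacked both (upper bound of the exact interval 0.635%). The share lacking both was also 0% in peaks of 600 to 799 bp, and it was 11.7% in all peaks under 800 bp. The whole-series list is not independent of the replicate lists, and a wider interval meets other peaks more easily, so these shares say how the lists fit together and nothing on reproducibility beyond that.

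How a domain was divided differed between the replicates. In replicate 1, 437 domains (75.5%) matched a single peak, 119 matched 2, 12 matched 3 and 1 matched 4. In replicate 2, 282 (48.7%) matched a single peak, 237 matched 2, 39 matched 3, 8 matched 4 and 3 matched 5. Several pieces were therefore seen in 132 domains in replicate 1 (22.8%, interval 19.4 to 26.4%) and in 287 in replicate 2 (49.6%, interval 45.4 to 53.7%). Among peaks under 800 bp the shares were 1.30% in replicate 1 and 2.20% in replicate 2, and among those of 600 to 799 bp they were 11.1% and 23.0%. A narrow peak has less room for more than 1 piece. Per kb of whole-series peak, domains held 1.10 replicate 1 pieces and 1.42 replicate 2 pieces. The rates were 1.57 and 1.74 in peaks of 600 to 799 bp and 2.41 and 2.05 in all peaks under 800 bp. Every overlapped peak counts at least 1 piece however narrow it is. The rate per kb is therefore tied to width and cannot show that domains were less divided.

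**Figure D3:**
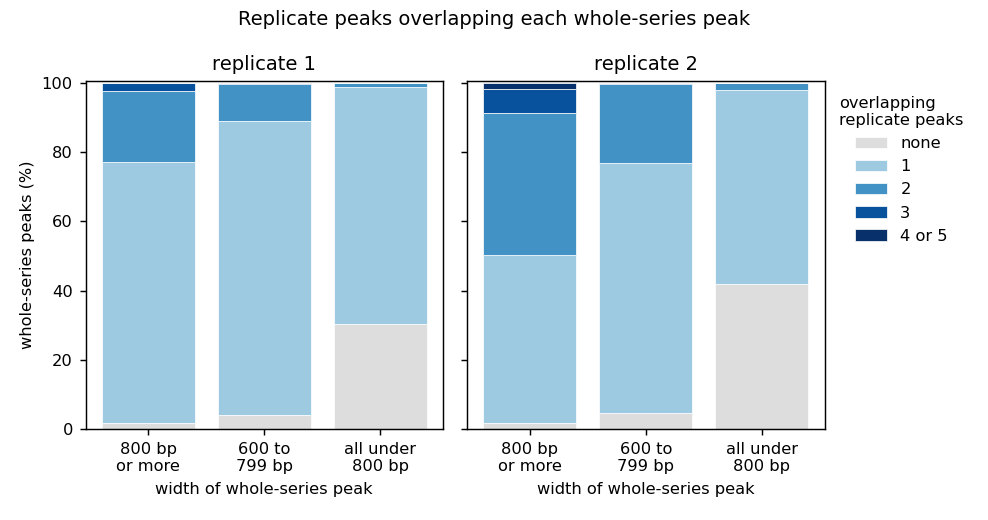
Share of whole-series peaks (vertical axis, %) that overlap no, 1, 2, 3, or 4 to 5 peaks of replicate 1 (left panel) and of replicate 2 (right panel), for domains of 800 bp or more, peaks of 600 to 799 bp and all peaks under 800 bp. A single peak matches 75.5% of domains in replicate 1 and 48.7% in replicate 2.

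Compared domain by domain, 227 of the 559 domains found in both replicates had more pieces in replicate 2 than in replicate 1, 63 had fewer and 269 had the same number. A single piece in each was the pattern of 217 domains. Another 210 were whole in replicate 1 and divided in replicate 2, 58 were the other way round, and 74 were divided in both. Replicate 1 peaks covered 85.4% of all domain bases and replicate 2 peaks 68.5%. Replicate 1 covered more of the domain in 438 cases and replicate 2 in 141. At least 1 overlapping replicate peak was itself 800 bp or wider for 352 domains in replicate 1 (60.8%) and for 140 in replicate 2 (24.2%). In 87 domains (15%, interval 12.2 to 18.2%) this held in both replicates, in 265 in replicate 1 only, in 53 in replicate 2 only, and in 174 in neither. These 174 passed 800 bp in the whole-series list alone.

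The breaks inside domains were short. Between the pieces of a domain there were 146 gaps in replicate 1, with a median of 89.5 bp and a range of 38 to 396 bp. There were 351 in replicate 2, with a median of 118 bp and a range of 36 to 691 bp. Neighbouring peaks were never closer than 36 bp in the whole-series list, 37 bp in replicate 1 or 36 bp in replicate 2, so no list separates peaks by less than that. Of the replicate 2 gaps, 286 (81.5%) lay wholly inside a replicate 1 peak, and of the replicate 1 gaps, 76 (52.1%) lay wholly inside a replicate 2 peak. The covered share of all domain bases was 85.4% for replicate 1 peaks and 68.5% for replicate 2 peaks. It counts single bases, while a gap had to lie inside a peak over its whole length. The values are therefore not comparable and cannot show if breaks coincide between the replicates. In the 74 domains divided in both lists, 40 of 83 replicate 1 gaps (48.2%, interval 37.1 to 59.4%) overlapped a replicate 2 gap, and 40 of 98 replicate 2 gaps (40.8%, interval 31.0 to 51.2%) overlapped a replicate 1 gap.

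Division into pieces was more frequent in wider domains, which have more room for several pieces. In replicate 2 it was seen in 40.2% of domains of 800 to 999 bp, 55.7% of those of 1000 to 1499 bp and 75.3% of those of 1500 bp or more. In replicate 1 the shares were 18.7%, 27.0% and 30.1%. The covered share changed less, at 67.2%, 67.6% and 72.3% in replicate 2 and 84.2%, 85.6% and 87.3% in replicate 1. Pieces per kb fell over these classes, at 1.59, 1.38 and 1.14 in replicate 2 and 1.32, 1.09 and 0.70 in replicate 1. That rate is tied to width too. In 12 domains a replicate gave 4 pieces or more, 11 times in replicate 2 and once in replicate 1. Of these 12, 8 were a single peak in replicate 1. With 5 replicate 2 pieces each, the domain on I described above was joined by II from 14406381 to 14408334 (1954 bp, 1 piece in replicate 1) and IV from 11592506 to 11595006 (2501 bp, 2 pieces in replicate 1). The exception was II from 3966773 to 3969221 (2449 bp, score 17.4), with 4 pieces in replicate 1 and 1 in replicate 2 that covered 99.6%. Besides the 3 of the 10 widest on V, the others with 4 replicate 2 pieces lay on II from 8125221 to 8127035, III from 4280782 to 4282908, IV from 16491496 to 16493492, V from 14687176 to 14688825 and X from 16929395 to 16931879. The first 4 of these had 2, 1, 1 and 3 replicate 1 pieces, and the one on X had 1.

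Seen from the replicates, 351 of the 445 broad peaks of replicate 1 (78.9%) overlapped a domain, 91 overlapped only narrower whole-series peaks and 3 overlapped none. Of the 157 broad peaks of replicate 2, 142 (90.4%) overlapped a domain and 15 only narrower peaks. Division also ran the other way: 85 broad peaks of replicate 1 (19.1%) and 14 of replicate 2 (8.92%) each overlapped several whole-series peaks. The widest peak of replicate 1, on V from 3434607 to 3441115 (6509 bp, score 12.9), spanned 10 whole-series peaks, of which 1 was a domain. Between the replicates, which are separate libraries, 418 broad peaks of replicate 1 (93.9%, interval 91.3 to 96.0%) overlapped a replicate 2 peak, and 136 broad peaks of replicate 2 (86.6%, interval 80.3 to 91.5%) overlapped a replicate 1 peak. For peaks under 800 bp these shares were 49.8% and 64.9%. A wider peak meets other peaks more easily, so the contrast is tied to width and cannot show better reproducibility. A broad peak in one replicate was seldom broad in the other when read from replicate 1 (87 of 445, 19.6%), and more often when read from replicate 2 (89 of 157, 56.7%). The lists of broad peaks differ in length, which alone separates these shares.

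The 20 domains found in 1 replicate mostly scored low, and their widths were ordinary. The 10 without a replicate 1 peak were 819 to 1473 bp wide and scored 5.16 to 12.4, with a median score of 10.5 against 31.6 in all domains. They lay on I from 3651366 to 3652294, II from 11212401 to 11213873, III from 13091626 to 13092794, IV from 604800 to 605744 and from 2397165 to 2398173, V from 8826099 to 8826952, from 8868160 to 8869024, from 14104961 to 14106241 and from 14240187 to 14241077, and X from 1602344 to 1603162. The widest of these, on II (1473 bp), lay 159 bp from the 2581 bp domain that replicate 1 covered with 146 bp. The 10 without a replicate 2 peak were 837 to 1531 bp wide and scored 5.23 to 29.0, with a median of 11.8. They lay on I from 11253442 to 11254340 and from 13600558 to 13601648, II from 10542623 to 10543545, III from 1211409 to 1212519 and from 10636180 to 10637301, V from 3439262 to 3440366, from 19201425 to 19202317, from 19933150 to 19933996 and from 20711735 to 20712571, and X from 6743252 to 6744782. Of their 9 autosomal members, 7 were in chromosome arms, against 4 of the 9 autosomal domains without a replicate 1 peak. The share in arms was 44.7% over all autosomal domains, and counts of 9 are too small to show a difference.

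Broad domains had closer neighbours than narrower peaks in each of the 3 lists. The nearest other whole-series peak, measured from edge to edge, was a median of 287 bp away from domains (interval of the median 246 to 356 bp), 455 bp from peaks of 600 to 799 bp and 847 bp (813 to 884 bp) from all peaks under 800 bp. A neighbour within 1 kb was found for 431 domains (74.4%, interval 70.7 to 77.9%), 64.2% of peaks of 600 to 799 bp and 53.1% of all the narrower peaks (52.3 to 54.0%). On both sides it was found for 189 domains (32.6%), 24.6% of peaks of 600 to 799 bp and 16.1% of all narrower peaks. For broad peaks of replicate 1 the share with a neighbour within 1 kb was 74.6%, against 49.7% of its narrower peaks. In replicate 2 the shares were 65.6% and 46%. The difference was 21.3 percentage points in the whole-series list, 24.9 in replicate 1 and 19.6 in replicate 2. The SD of this difference between the replicates was 3.75 points, but it rests on 2 values and cannot measure certainty. The difference has no test, since distance and width come from the same calls. The part played by signal called in pieces was not tested.

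**Figure D4:**
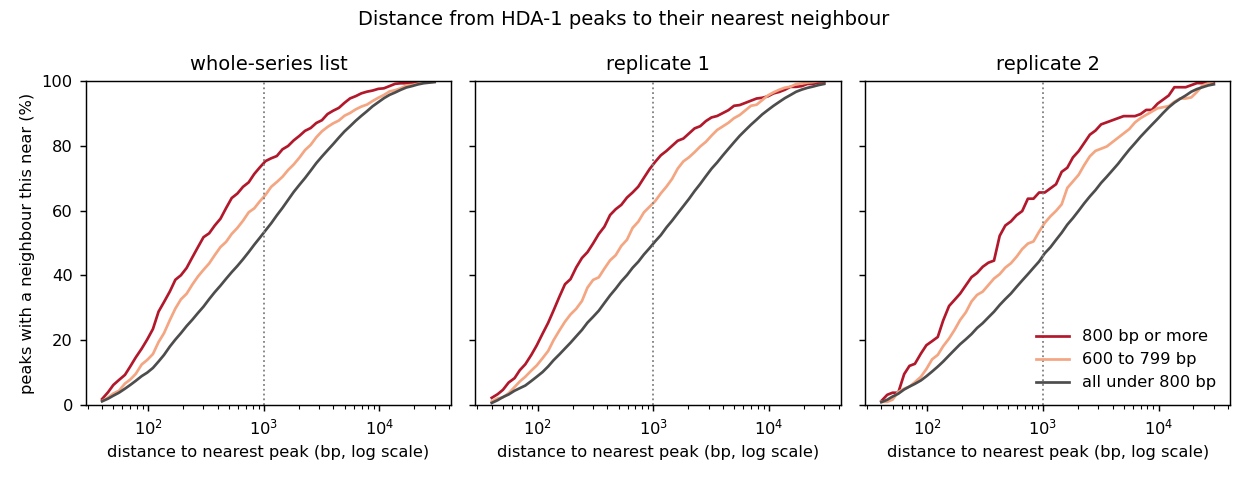
Share of peaks (vertical axis, %) whose nearest other peak of the same list lies within the distance on the horizontal axis (bp, log scale), for the whole-series list, replicate 1 and replicate 2. Peaks of 800 bp or more (red) lie above those of 600 to 799 bp (pale) and all peaks under 800 bp (grey) at 1 kb, the dotted line, in each list.

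Closeness held on every chromosome in the whole-series list and in both arms and centres. The share of domains with a neighbour within 1 kb ran from 65.9% on IV to 79.5% on X, and that of narrower peaks from 48.7% on V to 58.1% on III. In autosome arms it was 74.6% of domains and 53.1% of narrower peaks, and in the centres 72.9% and 55.0%. The neighbours themselves were mostly narrow: the peak nearest to a domain had a median width of 295 bp, and the peak nearest to a narrower peak one of 251 bp. It was another domain for 60 domains (10.4%, interval 8.0 to 13.1%) and a domain for 4.19% of the narrower peaks. Of the 431 close neighbours of domains, 208 (48.3%) were found in both replicates, and of those of narrower peaks 43.8%. Within 10 kb on each side there was a median of 5 other peaks around a domain, also 5 around a peak of 600 to 799 bp, and 4 around all peaks under 800 bp.

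When peaks less than 1 kb apart were chained into runs, 190 domains (32.8%) stood in runs of 5 peaks or more. The share was 21.7% in peaks of 600 to 799 bp and 13.2% in all narrower peaks. Another 148 domains (25.6%) stood alone, against 35.8% and 46.9% in these 2 classes. The 579 domains lay in 502 runs, lone domains included, and 58 runs held 2 domains or more. The run with the most domains was on II from 10541969 to 10559376. Its 17408 bp held 21 whole-series peaks, 6 of them domains, and 70.8% of it was under a peak. On X from 6736424 to 6745849 a run of 9 peaks held 4 domains in 9426 bp, of which 86.9% was under a peak. It contains the 2645 bp domain and the 1531 bp domain without a replicate 2 peak. The other run with 4 domains, on II from 13817710 to 13825597, had 6 peaks. In all, 46 pairs of neighbouring domains were under 1 kb apart. The closest lay on III, from 12612329 to 12613910 and from 12613949 to 12615624, with 38 bp between widths of 1582 and 1676 bp. The next were on V, from 1150183 to 1151061 and from 1151102 to 1152133 (40 bp apart), and on II, from 1149270 to 1150795 and from 1150846 to 1151908 (50 bp apart). The most isolated domain was on I from 11253442 to 11254340, 26316 bp from its nearest neighbour, and 14 domains (2.42%) were over 10 kb from any other peak, against 6.28% of narrower peaks.

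Domains were found on all 6 nuclear chromosomes. Their density was 7.53 per Mb on II (115 domains), 6.82 on III (94), 6.38 on I (96), 5.20 on IV (91), 5.02 on V (105) and 4.40 on X (78). Median widths differed little, from 940 bp on V to 1000 bp on IV. X had the lowest density of domains although its narrower peaks, at 146 per Mb, were denser than those of IV (117) and V (101.5). In replicate 2, X was again lowest for broad peaks, at 1.02 per Mb, but in replicate 1 its 4.40 per Mb stood above IV (3.89) and V (3.44). X held 13.5% of domains (interval 10.8 to 16.5%), 16.7% of peaks of 600 to 799 bp (14.2 to 19.5%) and 18.9% of all narrower peaks (18.3 to 19.6%). In replicate 1 it held 17.5% of broad peaks (14.1 to 21.4%) and 19.5% of the others, and in replicate 2 it held 11.5% (6.94 to 17.5%) and 16.1%. The difference was thus below 0 in all 3 lists, at -5.46, -1.99 and -4.60 percentage points, but within each replicate the interval for broad peaks includes the share among narrower ones. On X, 2.94% of the whole-series peaks were domains, against 3.90% to 4.83% on the autosomes. In replicate 1, broad peaks were 3.41% of those on X, inside the autosomal range of 3.30% to 4.41%. In replicate 2 they were 1.14% on X (interval 0.675 to 1.79%) and 1.32% to 2.06% on the autosomes.

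Along the chromosomes, domains showed no steady preference for arms or centres. In C. elegans the autosome arms are richer in repeats and repressive chromatin marks and the centres in essential genes. Arms were taken as the outer 25% of the chromosome at each end. Of the 501 autosomal domains, 224 lay in arms (44.7%, interval 40.3 to 49.2%), against 47.7% of the narrower peaks, a difference of -3.00 percentage points. Over the 5 autosomes the mean difference was -2.71 ± 5.12 points (SD), with 3 below 0. In replicate 1 broad peaks were in arms in 41.4% of cases and narrower peaks in 42.4%, and in replicate 2 in 58.3% (49.6 to 66.6%) and 51.6%. The differences of -0.95 and 6.69 points have opposite signs. In replicate 2 the difference was largest on III, where 22 of 28 broad peaks lay in arms (78.6%, interval 59.0 to 91.7%), against 52.2% of narrower ones. On the other 4 autosomes it was between -2.19 and 6.34 points, and with III left out the pooled shares were 53.2% of broad peaks and 51.4% of narrower ones, a difference of 1.74 points.

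**Figure D5:**
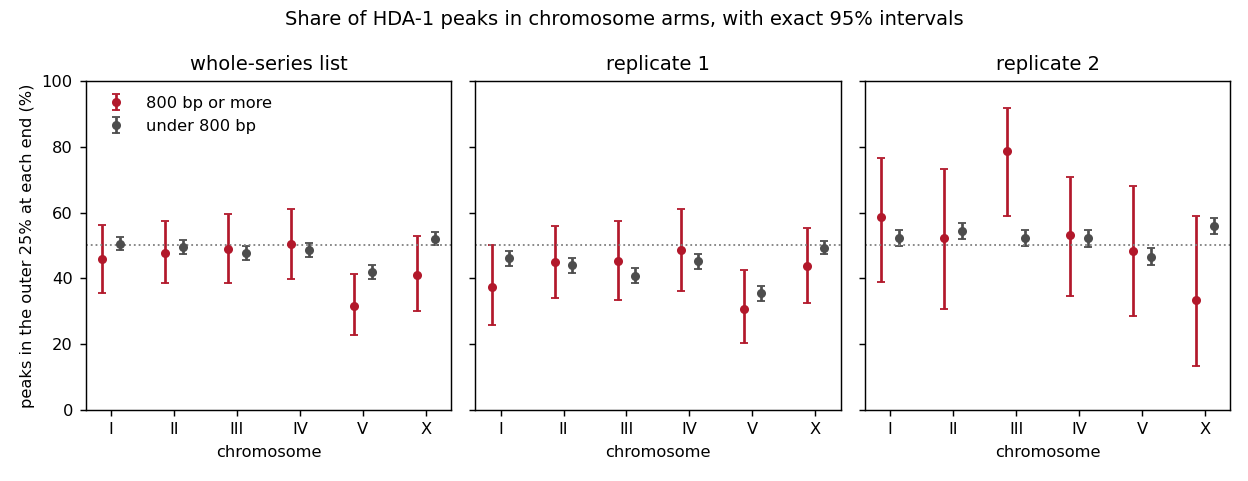
Share of peaks in the outer 25% at each end of a chromosome (vertical axis, %) for peaks of 800 bp or more (red) and under 800 bp (grey) on each chromosome, in the whole-series list, replicate 1 and replicate 2; bars are exact 95% intervals. V is lowest among the domains of the whole-series list, at 31.4%, and III highest in replicate 2, at 78.6%.

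In the whole-series list, the domains on V had the lowest arm share of the autosomes. They lay in arms in 33 of 105 cases (31.4%, interval 22.7 to 41.2%), against 42.0% of the narrower peaks on V. There were 20 on the left arm, 72 in the centre and 13 on the right arm. The difference between broad and narrower peaks on V was smaller in replicate 1 and had the opposite sign in replicate 2. In replicate 1, 30.6% of the broad peaks on V and 35.5% of its narrower peaks lay in arms, a smaller difference than on I (37.3% and 46.0%), and in replicate 2 the shares on V were 48.1% and 46.6%. Without V, the autosomal shares of the whole-series list were 48.2% of domains and 49.1% of narrower peaks. On IV the split was uneven between the ends, with 32 domains on the left arm, 45 in the centre and 14 on the right arm. The narrower peaks of IV leaned the same way. They numbered 107 to 153 per 1-Mb bin from 1 to 4000000, and 74 to 108 per bin from 13000001 to 17000000. On X, 32 of 78 domains (41.0%) lay in the outer parts, against 52.1% of narrower peaks. The shares on X were 43.6% and 49.3% in replicate 1, and 33.3% (6 of 18) and 55.8% in replicate 2.

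In the whole-series list, arm share was higher in wider domains, with intervals that overlap between neighbouring classes. It was 36.1% in peaks of 600 to 799 bp, 40.8% in domains of 800 to 999 bp, 46.3% in those of 1000 to 1499 bp and 57.8% in those of 1500 bp or more (37 of 64, interval 44.8 to 70.1%). In replicate 1 the shares for the same 3 classes of broad peaks were 38.5%, 40.7% and 55.1% (27 of 49, interval 40.2 to 69.3%). Replicate 2 showed no such order, with 56.3%, 61.9% and 58.8% (10 of 17, interval 32.9 to 81.6%). In the widest class the share in arms was above 50% on I (6 of 10), II (12 of 19), III (9 of 13) and IV (7 of 11), and V had 3 of 11. Below 600 bp the order was the opposite, with 51.8% of peaks of 146 to 249 bp in arms, 44.7% of those of 250 to 499 bp and 41.7% of those of 500 to 599 bp. Domains in autosome arms had a median width of 999 bp and a median score of 31.3, and those in the centres 948 bp and 31.8. In arms, replicate 2 peaks covered 72.2% of domain bases and gave several pieces in 46.0% of domains, and in centres 67.1% and 52.0%. For replicate 1 these values were 84.0% and 24.6% in arms and 85.3% and 21.7% in centres.

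In bins of 1 Mb the domains were spread widely. The 97 full bins held a median of 5 domains, and all but 1 had at least 1. The most were 14, on I from 12000001 to 13000000 and on II from 11000001 to 12000000. The bin on II also held 213 narrower peaks, while that on I held 142, close to the median of 140. The bin with no domain was IV from 15000001 to 16000000, with 74 narrower peaks. Across the 97 bins, which share the same lists, the number of domains followed that of narrower peaks only loosely (Spearman's rho 0.38, Pearson's r 0.39, as a description). Genes and sequences under the domains were not analysed here, because no annotation or genome of the WS220 build was used.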

How the data were processed

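The files are 3 peak lists, 1 for each HDA-1 ChIP replicate and 1 for the whole series that names no replicate. Per the file headers, the build is WormBase WS220 and MACS called the peaks. BWA and ce10 are named in the submitters' processing notes. The MACS version, threshold, control and filters, and how the whole-series list was made, are not stated in these sources. Each peak carries a start, an end and a score, the authors' own deposited value, used only within its list. There are no read counts, so depth is unknown. A different joining distance or depth would change widths, and with them which peaks are domains.

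From these files, widths, edge-to-edge distances, overlaps of at least 1 bp and positions were computed. Chromosome spans were the largest peak end over the 3 lists, 100.2 Mb in all. Positions used peak midpoints. A distance is the number of bases between 2 peaks. Shares have exact (Clopper-Pearson) 95% intervals and medians order-statistic intervals. Both take peaks as independent, although they cluster, and reflect counting error alone. No test was run, because the domains were chosen from the values compared and positions are not replicates. The main shares are given beside those of each replicate's own list; other values are of the whole-series list unless a replicate is named.

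Regions were named by rule: the 10 widest domains, those with 4 or more pieces in a replicate, those lacking a replicate, the 3 closest pairs, and the 3 peaks on each side of 800 bp. The most crowded runs and bins, the widest replicate peaks, the most isolated domain and the classes within the domains were picked with their values in view. The domains, lists and comparisons were chosen with earlier results of these data known. Alternatives were widths of 600 and 1000 bp, the better-scoring 50%, overlap of 50% of the shorter peak, other arm and neighbour limits, merging under 100 bp and each replicate alone. Code was checked on 2000 simulated regions with known pieces, all recovered. Computation was in Python 3.11.15 with SciPy 1.17.1, pandas 2.3.3 and NumPy 2.4.6, and plotting in matplotlib 3.10.9.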

Additional observations from a re-analysis of the deposited data

How the results depend on the processing

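Of 62 alternative values, 31 stayed within the interval or spread of the reported value or, for the number of domains, within 1.5 times it, 29 moved further and 2 changed sign; the 18 alternatives for the 3 differences between domains and narrower peaks were chosen after seeing the data. Widths of 600 bp or more gave 1391 peaks, of which 93.5% were in both replicates, 16.0% were in several pieces in replicate 1 and 34.1% in replicate 2, 39.8% of the autosomal ones were in arms and 68.4% had a neighbour within 1 kb, at a median distance of 376 bp; their arm difference was -8.70 points and their neighbour difference 16.0. Widths of 1000 bp or more gave 258, with 27.9% and 61.2% in several pieces, 49.6% in arms, 79.1% with a neighbour within 1 kb and a median distance of 211 bp; the arm difference changed sign to 2.01 points and the neighbour difference was 25.5. In the better-scoring 50% of the list, where fewer peaks remain to be neighbours, 53.3% of domains had one within 1 kb, the median distance was 850.5 bp and the X difference was -3.53 points. Merging peaks closer than 100 bp raised the number of domains to 748. A limit of 500 bp gave 62.7% of domains with a neighbour, and 2 kb gave 82.9% with a difference of 15.3 points. Arms of 33.3% of the length at each end, being longer, held 64.1% of autosomal domains. Taking either replicate's own list in place of the whole-series list gave 157 (replicate 2) to 445 (replicate 1) broad peaks, an arm share of 41.4% to 58.3%, an X share of 11.5% to 17.5%, a neighbour within 1 kb for 65.6% to 74.6% and a median distance of 302 to 411 bp. It gave an arm difference of -0.95 (replicate 1) to 6.69 points (replicate 2), which changes its sign, an X difference of -4.60 to -1.99 and a neighbour difference of 19.6 to 24.9. The direction of the arm difference therefore depends on the list and on the width limit, and the cause was not tested. The X and neighbour differences kept their direction under every alternative tried for them. Merging peaks closer than 100 bp was not tried for either difference or for the distance to the nearest peak. No paired analysis was possible because the inputs, whose numbers match those of the ChIP libraries, were not used here. Depth is unknown, so its limit on width cannot be given.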
